A study of Mus musculus with 6 samples.

Results

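The MAP kinase feedback genes described here are 10 mouse genes: 6 dual-specificity phosphatases (Dusp1, Dusp2, Dusp4, Dusp5, Dusp6 and Dusp10), 2 Sprouty genes (Spry1 and Spry2) and 2 Sprouty-related genes (Spred1 and Spred2). They were chosen by name and each matched exactly 1 of the 37043 gene symbols in the count table. All 10 were measured by bulk RNA-seq of poly(A) RNA in cultured mouse basophils, called BMBAs for bone marrow-derived basophils, that received IL-3 or PBS. The PBS group and the IL-3 group each held 3 libraries.

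BMBAs in both groups came from wild-type C57BL/6J mice, whose age is not given in the labels. Bone marrow cells were grown for 7 days with 0.3 ng/mL of a cytokine, named as IL-3 in the study's methods, and cells bearing CD49b were then collected on beads. IL-3-stimulated BMBAs received 10 ng/mL IL-3 for 6 h and control BMBAs received PBS for 6 h, so both groups had met IL-3 during growth. Neither the labels nor the methods say whether growth medium with IL-3 remained on the PBS-treated cells. The cells were enriched rather than purified, and fewer cells of a type cannot be told apart from less RNA per cell in such bulk libraries.

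IL-3 binds a receptor that activates the JAK-STAT pathway and, through RAS, the kinase chain RAF, MEK and ERK. MAP kinase phosphatases remove the phosphates that switch ERK, p38 and JNK on, and many of their genes are themselves transcribed when these kinases are active. Sprouty and SPRED proteins are membrane-associated inhibitors that restrain the chain further upstream, near RAS and RAF, so both families are classed as feedback inhibitors of the pathway.

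Library totals ranged from 10537540 to 13999287 counts. Normalised expression is given as CPM, the counts of a gene scaled to a common library size after adjusting each library by a trimmed mean of log ratios (TMM). With 3 counts, the upper limit that a count of 0 allows, a gene would reach 0.233 to 0.296 CPM depending on the library, a limit that covers counting error only. Pearson's r of log2 CPM was 0.985 to 0.988 between libraries of the same group and 0.952 to 0.957 between groups, across 16675 genes that are not independent replicates. Basophil markers were abundant in every library, with a summed level of 11480 to 12574 CPM in PBS and 16412 to 16749 CPM in IL-3, with 6 of 8 markers higher and 1 lower. Markers of monocytes and macrophages were abundant too and moved the other way, from 11585 to 12514 CPM in PBS to 6057 to 6666 CPM in IL-3, with 6 of 8 markers lower and 2 higher. The summed level of mast cell markers was 840 to 945 CPM in PBS and 1437 to 1571 CPM in IL-3, with 4 of 6 markers higher, and that of neutrophil markers was 113 to 155 CPM and 185 to 239 CPM, with 3 of 6 tested markers higher and 1 lower. Elane, a neutrophil granule protease, was at 0 in IL-3 replicate 1 and Ly6g, a neutrophil surface marker, was at 0 in PBS replicate 1 and passed the filter on low counts only through IL-3, so its call is no independent support. Markers were counted as higher or lower at an adjusted p below 0.05 in the edgeR quasi-likelihood test of IL-3 against PBS. By the same rule 18.0% of the 16675 genes tested were higher and 20.2% were lower. The part of these shifts in cell type markers in the results below was not tested.

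The promoter windows of the genes are shown first, because genes of this kind are known to respond to transcription factors that ERK activates. A window runs from 250 bases before to 50 bases after the gene start. RefSeq (build GRCm38.p6) gave one for every gene named above except Dusp4. The following 3 are printed: Dusp5 and Dusp1, because they held the only matches to the motifs searched, and Dusp6, because it had the largest change and held no match. Capitals mark the matches, which are 2 adjacent CArG boxes in Dusp5 and 1 cAMP response element (CRE, TGACGTCA) in Dusp1.
Dusp5 promoter, chr19:53528895-53529194, plus strand: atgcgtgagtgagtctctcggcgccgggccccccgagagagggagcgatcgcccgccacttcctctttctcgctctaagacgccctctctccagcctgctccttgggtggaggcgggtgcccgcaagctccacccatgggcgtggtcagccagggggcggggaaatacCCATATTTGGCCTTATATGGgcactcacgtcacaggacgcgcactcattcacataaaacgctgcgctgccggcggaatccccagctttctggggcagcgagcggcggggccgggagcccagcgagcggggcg
Dusp1 promoter, chr17:26508423-26508722, minus strand: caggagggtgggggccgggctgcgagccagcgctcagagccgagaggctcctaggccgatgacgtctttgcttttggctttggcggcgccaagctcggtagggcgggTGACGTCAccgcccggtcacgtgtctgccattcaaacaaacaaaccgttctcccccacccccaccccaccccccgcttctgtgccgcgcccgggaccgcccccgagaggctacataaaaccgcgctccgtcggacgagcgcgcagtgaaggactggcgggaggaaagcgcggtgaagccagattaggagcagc
Dusp6 promoter, chr10:99262981-99263280, plus strand: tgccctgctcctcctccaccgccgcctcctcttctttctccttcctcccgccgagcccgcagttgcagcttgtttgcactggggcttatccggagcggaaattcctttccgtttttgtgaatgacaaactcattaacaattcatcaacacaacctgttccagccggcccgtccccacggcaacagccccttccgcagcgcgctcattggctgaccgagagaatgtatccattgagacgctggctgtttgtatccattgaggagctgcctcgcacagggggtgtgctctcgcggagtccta

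The CArG box, the site of serum response factor, is CC, then a run of A or T, then GG. The 2 boxes in Dusp5, CCATATTTGG and CCTTATATGG, began 82 and 72 bases before the gene start. CArG boxes were present in 1.63% of the 32851 promoters of the same length in RefSeq. The CRE of Dusp1 began 143 bases before the RefSeq start, which lies inside the longer GENCODE span given for this gene with its values, and 1.79% of all promoters held this sequence. Motifs were searched on both strands with no mismatch, and a match is a description of letters, not a measured site. The STAT motif TTCNNNGAA, present in 8.30% of all promoters, the AP-1 motif TGANTCA, present in 7.81%, and the ETS motif CCGGAAGT, present in 3.89%, had no match in any of the 9 windows. All 9 windows were richer in G and C than the median promoter, with 57.0% in Spred2 to 72.3% in Spred1 against a median of 52.7%. They held 17 to 40 CpG pairs against a median of 7.

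To ask how IL-3 changed the transcripts of these feedback genes, IL-3-stimulated BMBAs were compared with PBS-treated BMBAs. Of the 10 genes, 8 rose in IL-3-stimulated BMBAs and 5 of them by more than 2-fold: Dusp6, Dusp5, Spred1, Spred2 and Spry2. Smaller rises were seen for Dusp10, Dusp4 and Dusp1. Dusp2 was not called, and Spry1 had too few counts to be tested. A gene was called when the adjusted p of the edgeR quasi-likelihood test was below 0.05. At that threshold 18.0% of the 16675 genes tested were higher in IL-3 and 20.2% were lower, 38.2% in either direction. Changes over 2-fold were called for 3.9% of genes as higher and for 5.68% as lower. In each of the 8 genes called, all 3 IL-3 libraries lay above all 3 PBS libraries, as was the case for 23.8% of all genes tested, while 24.4% lay wholly below and 48.2% had groups that did not overlap in either direction. The median log2 fold change of the 9 tested genes was 1.18, while the median over all genes tested was -0.003 and the median size of a change was 0.29. Every one of the 9 had at least 22 counts in each library, so none passed the filter on low counts through 1 group alone.

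**Figure D1:**
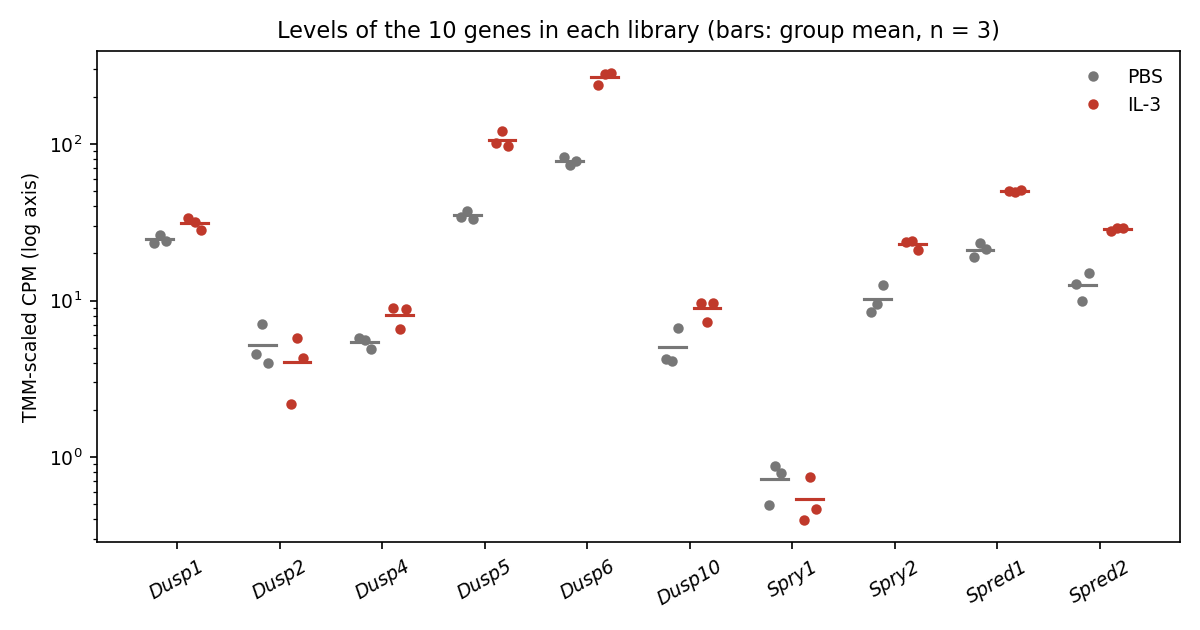
TMM-scaled CPM (log axis) of the 10 genes in each of the 3 PBS libraries (grey) and 3 IL-3 libraries (red), with bars at the group means. The points of the groups are separate for 8 genes and overlap for Dusp2 and Spry1, and the widest gap is that of Dusp6, at 73.8 to 82.7 CPM in PBS and 239 to 284 CPM in IL-3.

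Dusp6 and Dusp5 encode phosphatases that act on ERK with little activity on p38 or JNK. DUSP6 resides in the cytoplasm and DUSP5 in the nucleus. Dusp6 (ENSMUSG00000019960, GRCm38, chromosome 10, 99263231 to 99267489, plus strand) was at 82.7, 73.8 and 77.7 CPM in the PBS libraries and at 239, 281 and 284 CPM in the IL-3 libraries. All IL-3 libraries stood clear of all PBS libraries, by far more than the spread within either group. The mean rose from 78.1 ± 4.45 to 268 ± 25.0 CPM (SD, n = 3), a 3.43-fold difference, with a log2 fold change of 1.78 (SE 0.0728, edgeR quasi-likelihood test, adjusted p = 1.54e-11). This was the largest change among the 10 genes and ranked 240 among the 16675 tested when genes are ordered from the highest log2 fold change. The value rested on 842 to 3667 counts per library.

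Dusp5 (ENSMUSG00000034765, chromosome 19, 53529109 to 53542431, plus strand) was at 34.4, 37.5 and 33.3 CPM in PBS and at 102, 121 and 96.6 CPM in IL-3. The groups were again separate, with IL-3 replicate 2 the highest. The log2 fold change was 1.60 (SE 0.0870, adjusted p = 5.17e-10 by edgeR's quasi-likelihood test), or 3.04-fold between the means, which ranked 292. Their changes were of similar size: the ratio of Dusp6 to Dusp5 CPM within a library was 1.97 to 2.41 in PBS and 2.32 to 2.94 in IL-3, ranges that overlap. No test of the difference between the 2 changes was made.

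Dusp4, Dusp1 and Dusp2 encode nuclear phosphatases. DUSP1 acts on p38 and JNK as well as ERK, and DUSP4 and DUSP2 also act on more than 1 of these kinases. Dusp4 (ENSMUSG00000031530, chromosome 8, 34807297 to 34819894, plus strand) was at 5.73, 5.61 and 4.93 CPM in PBS and 8.98, 6.58 and 8.84 CPM in IL-3. IL-3 replicate 2 was closest to the PBS libraries, but the groups did not overlap. The log2 fold change was 0.58 (SE 0.178, edgeR quasi-likelihood test, adjusted p = 0.0172). This call rests on single libraries: without PBS replicate 3, IL-3 replicate 1 or IL-3 replicate 3 the log2 fold change was 0.52, 0.50 and 0.51 with adjusted p (edgeR) of 0.0570, 0.0691 and 0.0704, and with libraries scaled by their totals it was 0.42 with an adjusted p of 0.0749.

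Dusp1 (ENSMUSG00000024190, chromosome 17, 26505590 to 26562128, minus strand) was at 23.3, 26.4 and 24.1 CPM in PBS and 33.7, 31.6 and 28.4 CPM in IL-3. The lowest IL-3 library exceeded the highest PBS library by a small margin. With a log2 fold change of 0.34 (SE 0.0988, edgeR quasi-likelihood test, adjusted p = 0.0122), or 1.27-fold between the means, Dusp1 had the smallest change of the 8 genes called and ranked 3118. The call was lost without IL-3 replicate 1 (log2 fold change 0.28, adjusted p = 0.0648 by edgeR) and with libraries scaled by their totals (0.18, adjusted p = 0.197).

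Dusp2 (ENSMUSG00000027368, chromosome 2, 127336159 to 127338376, plus strand) was at 4.58, 7.10 and 3.96 CPM in PBS and 2.17, 5.75 and 4.27 CPM in IL-3. The groups overlapped, with the lowest value in IL-3 replicate 1 and the highest in PBS replicate 2. Its log2 fold change was -0.34 (SE 0.296, edgeR quasi-likelihood test, adjusted p = 0.408), with a 95% interval of -0.92 to 0.24, which covers anything from a sizeable fall to a small rise. Dusp2 varied most between libraries, with a coefficient of variation of 31.9% in PBS and 44.2% in IL-3, against medians of 9.66% and 9.31% over the 9 tested genes. Of the 9, it alone was not called.

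Dusp10 encodes a phosphatase of p38 and JNK that is found in both nucleus and cytoplasm. Dusp10 (ENSMUSG00000039384, chromosome 1, 184013302 to 184075636, plus strand) was at 4.25, 4.12 and 6.69 CPM in PBS and 9.68, 7.33 and 9.70 CPM in IL-3. PBS replicate 3 and IL-3 replicate 2 came close to each other, but the groups were separate. The log2 fold change was 0.83 (SE 0.206, edgeR quasi-likelihood test, adjusted p = 0.00469), or 1.77-fold between the means.

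Among the Sprouty and Spred genes the 3 tested rose by similar amounts. Spry2 (ENSMUSG00000022114, chromosome 14, 105891947 to 105896819, minus strand), which encodes an inhibitor of receptor signalling to RAS, was at 8.43, 9.47 and 12.6 CPM in PBS and 23.6, 24.1 and 21.2 CPM in IL-3. PBS replicate 3 was the highest of its group, still well below every IL-3 library. The log2 fold change was 1.18 (SE 0.144, edgeR quasi-likelihood test, adjusted p = 7.73e-06), or 2.26-fold. Spred1 and Spred2 encode proteins that bring neurofibromin, a RAS GTPase-activating protein, to the membrane. Spred1 (ENSMUSG00000027351, chromosome 2, 117121374 to 117182279, plus strand) was at 19.1, 23.1 and 21.3 CPM in PBS and 50.4, 49.3 and 50.9 CPM in IL-3, with a log2 fold change of 1.25 (SE 0.0899, edgeR quasi-likelihood test, adjusted p = 1.72e-08). The coefficient of variation over its IL-3 libraries was 1.60%, the lowest among the 10 genes in either group.

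Spred2 (ENSMUSG00000045671, chromosome 11, 19924375 to 20024026, plus strand) was at 12.7, 9.91 and 15.0 CPM in PBS and 27.9, 29.2 and 29.1 CPM in IL-3, again without overlap. Its log2 fold change was 1.20 (SE 0.132, edgeR quasi-likelihood test, adjusted p = 2.36e-06). Spred2 is the only one of the 10 genes that shared any stretch of 50 bases with another symbol: 1.34% of such stretches also occur in transcripts of other symbols, mainly Gm14612. The 95% intervals of the log2 fold changes were 0.89 to 1.46 for Spry2, 1.07 to 1.42 for Spred1 and 0.94 to 1.46 for Spred2, and each holds the estimates of the other 2 genes.

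Spry1 (ENSMUSG00000037211, chromosome 3, 37639947 to 37644598, plus strand), the paralog of Spry2, was barely detected. It had 6, 10 and 9 counts in the PBS libraries and 4, 9 and 6 counts in the IL-3 libraries, or 0.491 to 0.877 CPM and 0.395 to 0.750 CPM. The groups overlapped and every value rested on 10 counts or fewer. Without the filter on low counts the log2 fold change was -0.39 (SE 0.549, edgeR quasi-likelihood test, adjusted p = 0.686), so a change in Spry1 was not detectable at this depth.

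**Figure D2:**
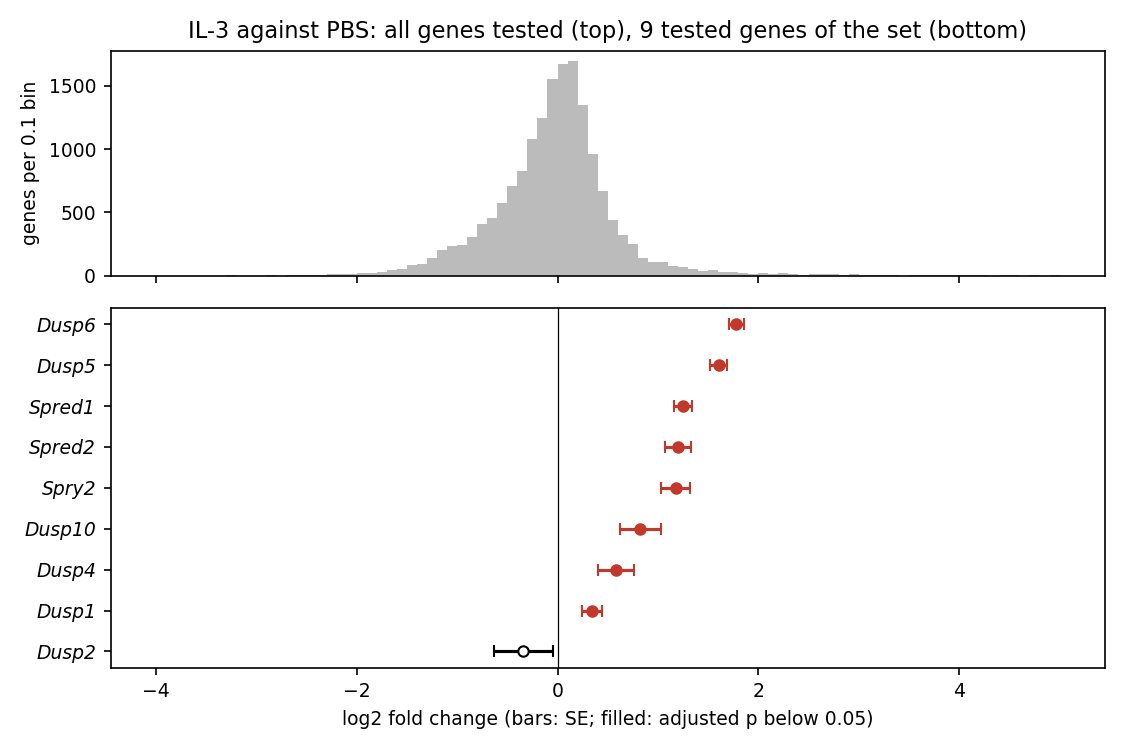
Number of genes per bin of log2 fold change, IL-3 against PBS, for the 16675 genes tested (top), and the log2 fold change of the 9 tested feedback genes with SE bars (bottom), filled where the adjusted p of the edgeR quasi-likelihood test was below 0.05. The 8 filled points run from 0.34 for Dusp1 to 1.78 for Dusp6, the open point is Dusp2 at -0.34, and with libraries scaled by their totals Dusp1 and Dusp4 were not called.

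The order of the genes changed little between groups when levels were compared per kilobase of the longest annotated transcript. In PBS-treated BMBAs, Dusp6 was the most abundant at 27.9 ± 1.59 CPM per kb (SD, n = 3), followed by Dusp5 at 14.2 ± 0.890, Dusp1 at 10.6 ± 0.689 and Spry2 at 4.87 ± 1.04 CPM per kb, with no overlap between neighbours. Spred1 (3.52 ± 0.340), Dusp2 (3.23 ± 1.03) and Spred2 (2.81 ± 0.570) came next with overlapping values, then Dusp4 (1.98 ± 0.156) and Dusp10 (1.80 ± 0.519), which also overlapped, and Spry1 was last at 0.260 ± 0.0732 CPM per kb. In IL-3-stimulated BMBAs the 5 most abundant genes kept their places, Dusp6 at 95.9 ± 8.93, Dusp5 at 43.1 ± 5.13, Dusp1 at 13.5 ± 1.15, Spry2 at 11.0 ± 0.744 and Spred1 at 8.34 ± 0.134 CPM per kb. Spred2 followed at 6.46 ± 0.159 CPM per kb, clear of its neighbours. Dusp10 (3.19 ± 0.487) overlapped Dusp4 (2.97 ± 0.493), Dusp4 overlapped Dusp2 (2.51 ± 1.11), and Spry1 remained last at 0.194 ± 0.0677 CPM per kb. The order depends on which transcript was expressed: per kilobase of the median transcript length, Dusp1 (14.5 ± 0.938) and Dusp5 (14.2 ± 0.890) overlapped in PBS, and Spred1 stood before Spry2.

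The mix of phosphatase transcripts shifted towards Dusp6. The summed level of the 6 Dusp genes was 59.7 ± 1.30 CPM per kb in PBS and 161 ± 11.0 CPM per kb in IL-3. Dusp6 made up 46.8 ± 3.07% of this sum in PBS and 59.5 ± 2.82% in IL-3, with a range of 43.4% to 49.3% against 57.2% to 62.6% over the libraries. Dusp1 went from 17.8 ± 0.970% to 8.42 ± 1.15%, although its own CPM was higher in every IL-3 library than in any PBS library. Dusp5 held 23.7 ± 1.04% and 26.7 ± 2.35%, ranges that overlap at 24.1% to 24.9%. Dusp2, Dusp4 and Dusp10 together filled the remainder, with 5.38%, 3.31% and 3.02% in PBS and 1.53%, 1.86% and 2.0% in IL-3.

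The mix of Sprouty and Spred transcripts, by contrast, was nearly the same in both groups while its sum rose from 11.5 ± 1.57 to 26.0 ± 0.636 CPM per kb. Spry2 held 42.2 ± 3.14% in PBS and 42.3 ± 1.89% in IL-3, Spred1 31.0 ± 4.21% and 32.1 ± 1.29%, and Spred2 24.6 ± 3.81% and 24.9 ± 0.893%. Spry1 had the rest, 2.26% and 0.742%. These shares are descriptions without a test, and those of genes with several transcripts depend on the length used.

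**Figure D3:**
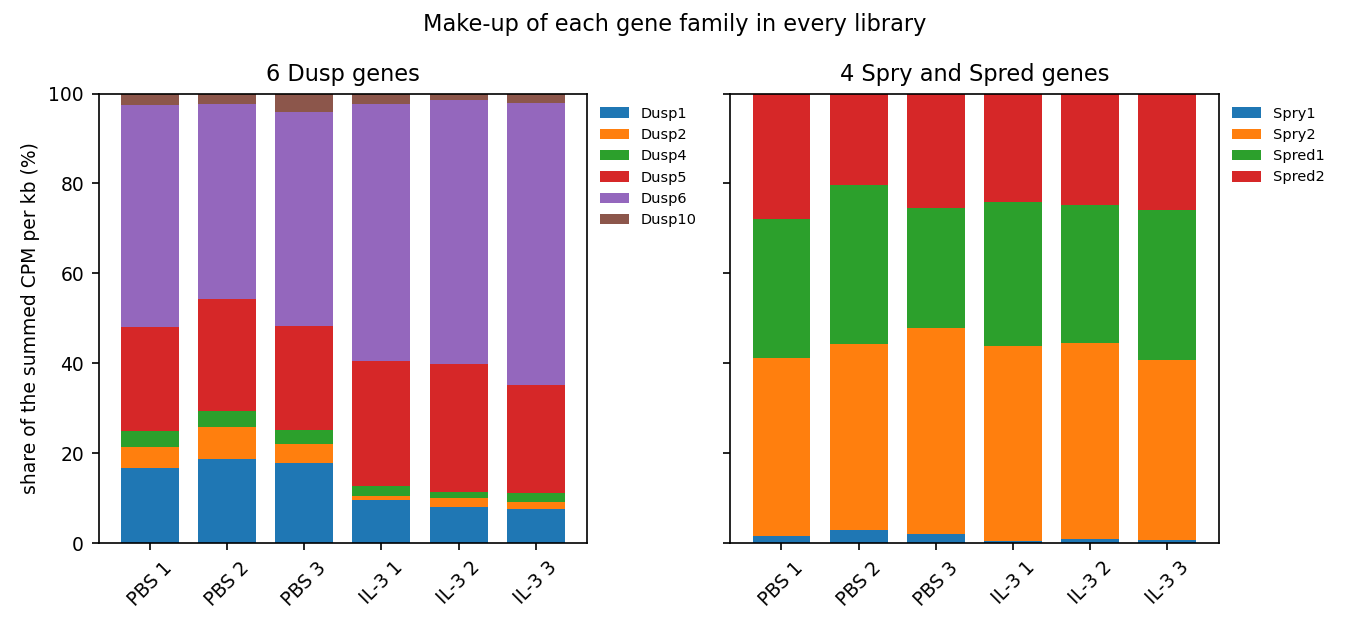
Share (%) of each gene in the summed CPM per kb of the 6 Dusp genes (left) and the 4 Spry and Spred genes (right), 1 stacked bar per library. Dusp6 takes 43.4% to 49.3% of the PBS bars and 57.2% to 62.6% of the IL-3 bars, while Spry2 takes 39.5% to 45.6% and 40.1% to 43.4%.

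Ratios of 2 genes within a library do not depend on how the libraries are scaled. The pairs given here were chosen after their values were seen, and ratios of CPM are compared between libraries only. The ratio of Dusp6 to Dusp1 was 3.55, 2.80 and 3.22 in the PBS libraries and 7.11, 8.87 and 10.0 in the IL-3 libraries. That of Dusp5 to Dusp1 was 1.47, 1.42 and 1.38 in PBS and 3.04, 3.82 and 3.40 in IL-3. The ERK phosphatases Dusp6 and Dusp5 thus stood higher relative to Dusp1 in every IL-3 library than in any PBS library.

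Dusp6 also stood higher relative to Dusp4, at 14.4, 13.2 and 15.8 in PBS and 26.6, 42.7 and 32.2 in IL-3. Against Spred1 the ratio of Dusp6 was 4.34, 3.19 and 3.64 in PBS and 4.75, 5.69 and 5.59 in IL-3, and against Spry2 it was 9.82, 7.80 and 6.17 in PBS and 10.1, 11.7 and 13.4 in IL-3. Both ranges are separate, though by little. Spred1 to Spred2, at 1.42 to 2.34 in PBS and 1.69 to 1.80 in IL-3, and Spred1 to Spry2, at 1.69 to 2.44 and 2.05 to 2.40, overlapped.

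**Figure D4:**
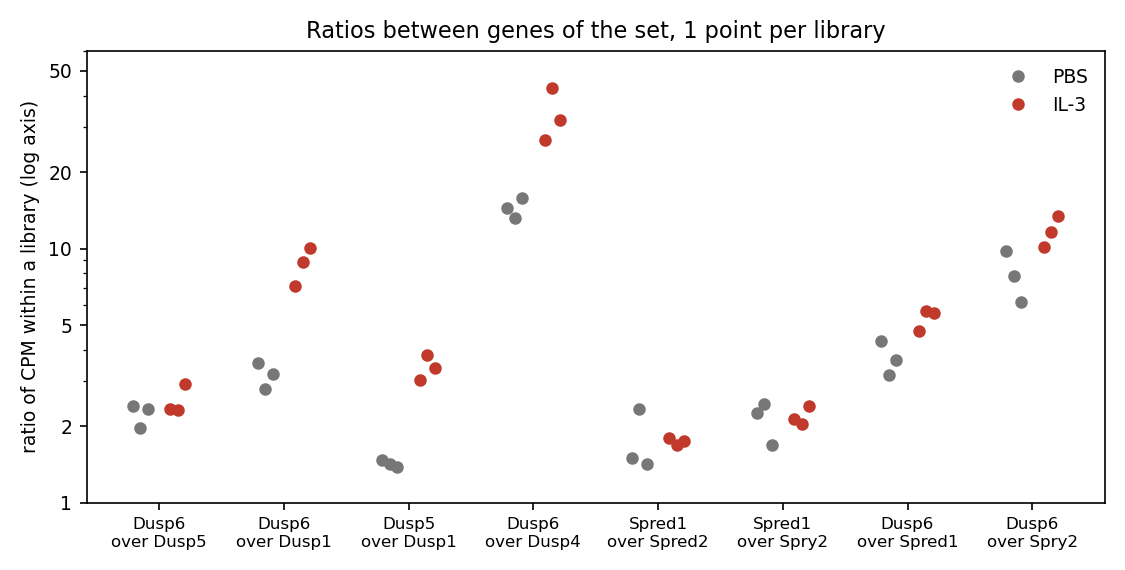
Ratio of the CPM of 2 genes within each library (log axis), 1 point per PBS library (grey) and IL-3 library (red), for 8 pairs. The ratios of Dusp6 and Dusp5 to Dusp1 are separate between groups, at 2.80 to 3.55 against 7.11 to 10.0 and 1.38 to 1.47 against 3.04 to 3.82, while those of Dusp6 to Dusp5, Spred1 to Spred2 and Spred1 to Spry2 overlap.

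Other genes of the pathway were counted by list, and each count stands beside the 18.0% of all genes called higher, 20.2% called lower and 38.2% called in either direction. Of 4 other MAP kinase phosphatases, 3 were tested and 1 was called: Dusp16, a phosphatase of JNK and p38, rose from 9.55 ± 1.19 to 13.0 ± 1.76 CPM (log2 fold change 0.45, edgeR quasi-likelihood test, adjusted p = 0.0262), a call lost without PBS replicate 2, PBS replicate 3, IL-3 replicate 2 or IL-3 replicate 3, and with library totals, so that 0 were then called higher. Dusp7, a cytoplasmic ERK phosphatase like DUSP6, had a log2 fold change of 0.0079 (adjusted p = 0.981 by edgeR). Dusp9, with 3 to 15 counts per library, had a log2 fold change of -1.16 (adjusted p = 0.0725 by edgeR) and passed the filter on low counts only through PBS. Without IL-3 replicate 1, or with library totals, 1 gene of this list was called lower. The list's median was 0.0079, beside -0.003 over all genes tested.

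Of the other Sprouty and Spred genes, Spry4 had 9, 3 and 4 counts in PBS and 25, 30 and 36 counts in IL-3. Every IL-3 library was above every PBS library, and the level went from 0.451 ± 0.251 to 2.59 ± 0.179 CPM (log2 fold change 2.48, SE 0.376, edgeR quasi-likelihood test, adjusted p = 7.20e-05). Spry4 passed the filter on low counts only through the IL-3 group, so its call is no independent support. Spred3 was not called (log2 fold change -0.41, adjusted p = 0.277 by edgeR), and Spry3 had 0 or 1 count in each library.

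Atypical dual-specificity phosphatases, which are small enzymes without the kinase-binding region of the MAP kinase phosphatases, gave 3 genes that fell and 7 not called among 10 tested (median log2 fold change -0.29), beside 20.2% of all genes called lower. In 6 of the 10 all IL-3 libraries lay below all PBS libraries, beside 24.4% of all genes. Among these was Styxl1, at 12, 12 and 11 counts in PBS and 6, 10 and 10 counts in IL-3. Styxl1 passed the filter on low counts only through PBS, so its separation is no independent support. With library totals 5 were called lower, and 2 were in each analysis that left out 1 library. Dusp3 fell from 86.3 ± 10.1 to 46.9 ± 4.90 CPM (log2 fold change -0.88, edgeR quasi-likelihood test, adjusted p = 1.37e-06). Dusp28 (-0.93, adjusted p = 0.00142) and Dusp22 (-0.50, adjusted p = 0.0323) were the other 2 in the same edgeR test.

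Changes among the adaptors, RAS exchange factors and kinases of the pathway were mixed. Of 13 adaptors and RAS exchange factors, 6 rose and 3 fell (median log2 fold change 0.18), and 4 rose and 4 fell with library totals. Rasgrp4, a RAS exchange factor of mast cells, had the largest rise, from 6.18 ± 0.232 to 36.1 ± 1.70 CPM (log2 fold change 2.55, edgeR quasi-likelihood test, adjusted p = 5.40e-11). The adaptor Gab2 (1.14) and the exchange factor Sos1 (1.03) also rose. Of 12 RAS, RAF, MEK and ERK genes, 7 rose and 2 fell by small amounts (median 0.26), with Nras (0.43) and Map2k1 (0.39) among those that rose.

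Of 8 RAS GTPase-activating proteins, 3 rose and 3 fell (median -0.065), among them Rasa2 (1.18), Rasal3 (0.40) and Rasa4 (-1.53). The counts in this paragraph stand beside 18.0% of all genes called higher and 20.2% called lower. In the p38, JNK and ERK5 modules, 3 of 13 rose and 5 fell (median 0.024). These modules include the p38 and JNK kinases, on which DUSP1 and DUSP10 act. Map2k4 rose from 81.2 ± 5.16 to 197 ± 2.0 CPM (log2 fold change 1.28, edgeR quasi-likelihood test, adjusted p = 9.30e-11). Map2k3 rose by less (0.30), and Map2k6 was called lower, at 28, 26 and 12 counts in PBS and 1, 4 and 9 counts in IL-3. Map2k6 passed the filter on low counts only through PBS and Mapk11, another of the 3 that rose, only through IL-3, so neither call is independent support. Of 10 other inhibitors of the pathway, 3 rose and 1 fell (median -0.031). Dok2, an adaptor that recruits RAS GTPase-activating protein, rose from 51.4 ± 2.22 to 196 ± 20.6 CPM (1.93), its paralog Dok1 fell (-0.42), and Errfi1, an inhibitor of the EGF receptor, rose with overlapping groups (0.75). Without PBS replicate 3, 1 of these 10 rose and 2 fell, without IL-3 replicate 1, 1 rose and 1 fell, without IL-3 replicate 2, 3 rose and 2 fell, and with library totals 1 rose and 5 fell.

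Most genes in a list of known responders to ERK activity also rose. Of 14 tested, 10 rose and 1 fell (median log2 fold change 1.80). The list was chosen with earlier results of these data known, so this count is no independent support. Fosl1, among those that rose, had 18, 7 and 22 counts in PBS and 88, 122 and 86 counts in IL-3. Fosl1 would not have passed the filter on low counts through PBS alone, so its call adds no independent support. Ier3, an early response gene, went from 122 ± 5.26 to 581 ± 27.3 CPM (2.25, edgeR quasi-likelihood test, adjusted p = 4.21e-14), Phlda1 from 33.8 ± 7.17 to 160 ± 22.6 CPM (2.24) and the transcription factor Myc from 3.61 ± 0.317 to 23.0 ± 4.08 CPM (2.67). The gene that fell was Fos, an immediate early transcription factor, with a log2 fold change of -0.96. With library totals 9 rose, in the analyses that left out 1 library 9 or 10 rose, and without IL-3 replicate 2 the number that fell was 2.

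Scaling by library totals instead of TMM moved the median of all genes by -0.16 on the log2 scale. Its size exceeded the positive medians of the other MAP kinase phosphatases and the p38, JNK and ERK5 modules, which it goes against. Also exceeded were the negative medians of the RAS GTPase-activating proteins, the other inhibitors and the stress genes, which it would make more negative. Because these medians are small beside the shift, no direction is given for those lists. With library totals, 4 of the 12 RAS, RAF, MEK and ERK genes rose instead of 7, and 1698 genes in all were called higher and 5030 lower instead of 3003 and 3372.

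**Figure D5:**
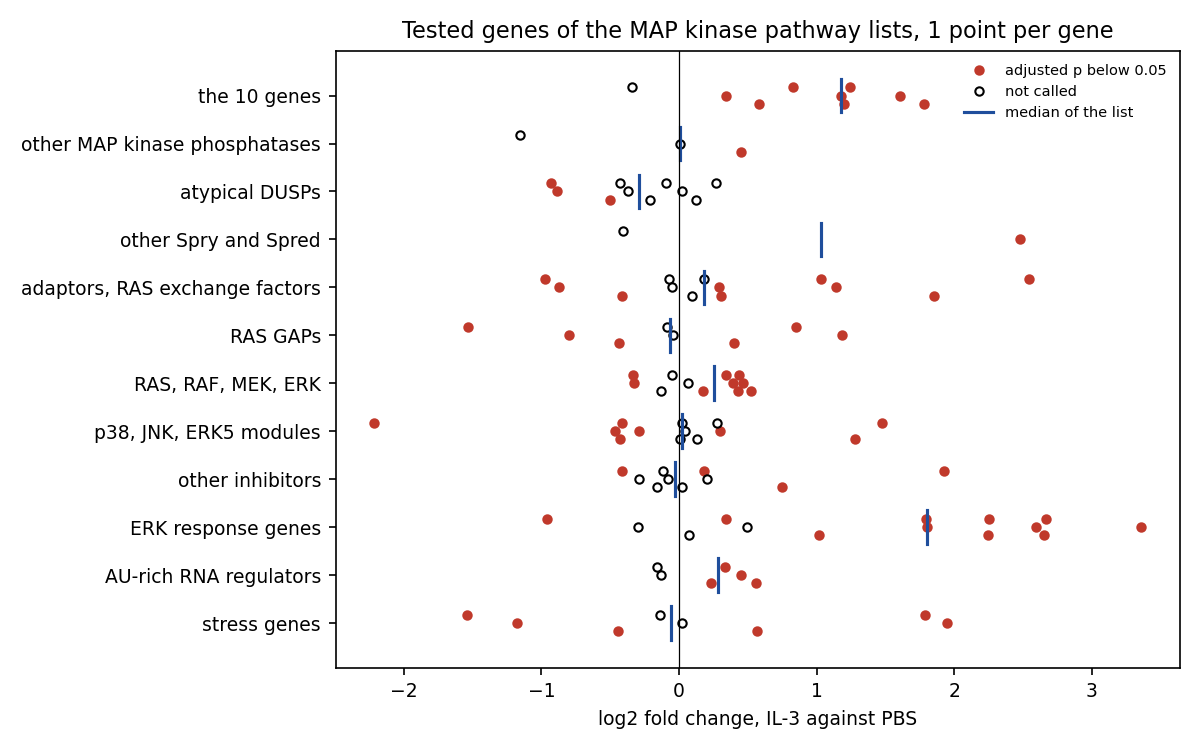
Log2 fold change, IL-3 against PBS, of every tested gene of the feedback set and of 11 other lists of the pathway, 1 point per gene, red where the edgeR adjusted p was below 0.05, with blue lines at the list medians. The feedback set (median 1.18) and the ERK response genes (median 1.80) lie mostly to the right, the atypical phosphatases (median -0.29) to the left. Lists with medians within 0.16 of 0 are given no direction, because scaling by library totals moved the median of all genes by -0.16.

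Transcripts of several of these genes are known to be short-lived, and AU-rich elements in the 3′ untranslated region are a feature of such transcripts. The nonamer TTATTTATT occurred in the longest annotated 3′ untranslated region of Dusp1, which held 2 copies in 690 bases, and in none of the other 9 genes. It was present in 8.78% of the 12421 tested genes with such a region. The core pentamer ATTTA occurred at least once in all 10 genes and in 70.9% of all tested genes, with 12 copies in the 4330 bases of Spred1, 1 each in Dusp5 and Dusp6 and a median of 2 over the tested genes. Per kilobase of this region Dusp2 (6.88) and Dusp1 (5.80) held more than Spred1 (2.77), beside a median of 1.37. This search was chosen after the expression values were seen, and stability of the transcripts was not measured.

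Regulators of such elements and stress genes were examined beside it. Of 6 AU-rich RNA regulators, 4 rose (median 0.28), led by Elavl1 (0.56), Hnrnpd (0.45) and Zfp36 (0.33), which destabilises AU-rich transcripts, while 2 rose and 2 fell with library totals and 3 rose and 1 fell without IL-3 replicate 2. Of 8 stress genes, 3 rose and 3 fell (median -0.061): Gadd45a (-1.54) and Gadd45g (-1.18), activators of p38 and JNK signalling, fell and the chaperone gene Dnajb1 (0.57) rose. The number of stress genes that rose was 1 without PBS replicate 2 or IL-3 replicate 1.

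The gene whose profile over the 6 libraries was nearest to each feedback gene was found among 11226 tested genes with a mean of at least 5 CPM, by the Euclidean distance between centred log2 CPM. Dusp6 was nearest to Fgl2 (distance 0.13, log2 fold change 1.82), Dusp5 to Il10ra (0.19, 1.63) and Spred1 to Prkcq (0.075, 1.21). Spry2 was nearest to Vmn1r168 (0.15), Spred2 to Otub2 (0.14), Dusp1 to Lap3 (0.060), Dusp4 to Klhdc4 (0.16) and Dusp10 to Gm13331 (0.30). Dusp2 had the most distant neighbour, Ltbp1 at 0.42. None of the nearest genes was itself a feedback gene.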

How the data were processed

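Bulk RNA-seq of 3 PBS and 3 IL-3 libraries was analysed. The authors deposited raw read counts per gene symbol. As the labels and methods describe it, poly(A) RNA was amplified as cDNA by the TAS-Seq workflow, and reads were trimmed with Cutadapt 3.4 and mapped with Bowtie2 to reference RNA. The methods name GRCm38 and the submitters' processing notes GRCm39. Coordinates given here are GRCm38 (GENCODE M21), which held 96.1% of the symbols. No molecular identifiers are described, so PCR copies count as reads. The methods describe separate cultures from a single experiment.

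Counts were tested in edgeR 4.0.16 (R 4.3.3): filterByExpr (16675 genes kept), TMM, and a two-sided quasi-likelihood F test on group, Benjamini-Hochberg adjusted over all genes tested. The pipeline was tested on simulated counts. A symbol's length is that of its longest transcript. Members and lists were chosen with earlier results of these data known. Named pathway genes are, for each list, the 3 called genes with the smallest adjusted p, plus every tested gene of the 2 lists of relatives. Some genes this rule selects are not reported here. Fos, Fosl1, Styxl1, Mapk11, Elane and Ly6g were added after their values were seen. Alternatives were DESeq2 1.42.0 size factors and Wald test, limma-voom (limma 3.58.1), library totals, iterated TMM, other filters, a test against a fold of 1.5, a replicate block, median transcript length and leaving out each library.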

Additional observations from a re-analysis of the deposited data

How the results depend on the processing

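The 8 calls among the feedback genes were kept with DESeq2 size factors, iterated TMM, no filter, a filter at 1 CPM, the DESeq2 Wald test and limma-voom, and no log2 fold change of the 9 tested genes changed sign under any alternative run. With library totals 6 were called (Dusp1 and Dusp4 lost), and 1698 genes in all were called higher and 5030 lower. Against a fold of 1.5, 5 feedback genes, 709 genes higher and 883 lower were called, and Dusp1, Dusp4 and Dusp10 were lost. Leaving out 1 library left 6 to 8 feedback genes called and 2482 to 2787 genes higher and 2883 to 3108 lower. With 2 libraries left in a group, edgeR takes the spread from both groups together. Dusp2 ranged from -0.67 to -0.057 without 1 library.

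A replicate block left 8 feedback genes called, with 2842 genes higher and 3247 lower. No pairing by replicate number was visible. Deviations of libraries with the same number correlated at -0.0087, -0.016 and -0.022, and those with different numbers at -0.029 to 0.046. The labels do not say whether the numbers pair cultures, and these values cannot show that they do not.

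With median transcript lengths the shares in PBS and IL-3 were 56.0% and 69.4% for Dusp6, 16.4% and 18.1% for Dusp5, 37.6% and 38.7% for Spred1, 28.8% and 29.0% for Spred2, and 31.7% and 31.6% for Spry2, and Dusp1 held 16.8% in PBS. These moved because the length of genes with several transcripts changed. Depth limits what can be seen of Spry1, at 4 to 10 counts a library.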
